A study of Homo sapiens with 3 samples.

Results

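The mitochondrial chromosome carried 16 of the 40843 editing clusters deposited for RBFOX2-APOBEC1 STAMP in HEK293T cells, and these fell on 7 distinct loci. All clusters whose chromosome is given as the mitochondrial one were kept, without any limit on depth or score. Replicates 1, 2 and 3 held 7, 4 and 5 of them, out of 14295, 15181 and 11367 clusters. The 7 loci lie in MT-ND1, MT-ND2, MT-CO1, MT-ND5 (which has 2), MT-CYB, and a stretch assigned jointly to MT-ATP6, MT-ATP8 and MT-CO3. At MT-ND2 and at the second MT-ND5 locus over 64% of reads were edited in each replicate, at MT-CYB and the first MT-ND5 locus 2.77% to 10.9% were, and at the remaining 3 loci at most 2.30% were. The lower tiers describe observed shares of reads only, and the boundary between them is not resolved for every locus. In replicate 1 the Wilson interval of MT-ND1 (0.633% to 8.0%) contained that of the first MT-ND5 locus (4.19% to 7.37%). The intervals of MT-CO1 (0.259% to 2.21%) and MT-ATP6/ATP8/CO3 (0.212% to 1.39%) lay below it there. In replicate 3 the interval of MT-CO1 (0.325% to 4.21%) overlapped that of the first MT-ND5 locus (1.68% to 4.52%). By the edit fraction (edited over covered C bases), MT-CO1 (2.76%) and MT-ND1 (1.21%) exceeded MT-CYB (1.09%) in replicate 1. In that replicate MT-ATP6/ATP8/CO3 (0.489%) stayed lowest.

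The 3 samples are biological replicates of a single condition. HEK293T is a human embryonic kidney cell line (here the Lenti-X derivative, HEK293XT, with the genotype given as wild type), in which doxycycline induced the RBFOX2-APOBEC1 fusion for 72 h. The treatment is labelled as transient transfection, although stable lines are described in the growth conditions, the RNA is polyadenylated, and the kit is given as TruSeq stranded mRNA or total RNA. Each sample carries the fusion, cells without it were not analysed here, and the files hold editing clusters rather than expression, so the identity of the cells could not be checked against marker genes.

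STAMP joins an RNA-binding protein to APOBEC1, a cytidine deaminase that turns C into U, and the change is read as a C-to-T mismatch in sequenced RNA. RBFOX2 is best known as a splicing regulator. The mitochondrial chromosome is a small circle whose mRNAs have no introns. Both of its strands are transcribed into long precursors that are cut into 13 mRNAs, 2 rRNAs and a set of tRNAs, and most of the mRNAs receive a poly(A) tail inside the organelle. The mRNAs encode subunits of respiratory complexes I (the MT-ND genes), III (MT-CYB) and IV (the MT-CO genes) and of ATP synthase (the MT-ATP genes).

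Of the 13 mRNA genes, 8 were named in at least 1 cluster and 3 (MT-ND2, MT-ND5 and MT-CYB) had a cluster in every replicate. Complex I was represented by 3 of its 7 mitochondrial genes, complex IV by 2 of 3, ATP synthase by 2 of 2, and complex III by MT-CYB. MT-ATP6, MT-ATP8 and MT-CO3 are counted here by their joint label alone. No cluster named MT-ND3, MT-ND4, MT-ND4L, MT-ND6, MT-CO2, the rRNA genes MT-RNR1 and MT-RNR2, or a tRNA gene. Only windows that passed the authors' threshold are in the files, so a gene without a cluster may be edited below it or covered by too few reads. All 16 clusters were labelled as exons, on a chromosome whose mRNAs have no introns. All lay on the plus strand, the strand that matches all of the mitochondrial mRNAs other than MT-ND6. Over the whole series 50%, 50.6% and 50.3% of clusters in replicates 1, 2 and 3 were on the plus strand. Of the clusters, 12 were 45 bases long and 4 were 30 bases long, and their lengths were not compared with those of nuclear clusters.

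Positions are given with 1-based starts in hg19, the build named in the submitters' processing notes. More than 1 version of the mitochondrial sequence has been in use with that build, and which of them was aligned to is not given in the sources used here. Of the 7 loci, 4 were found in all 3 replicates at identical bounds, 1 (MT-CO1) in replicates 1 and 3, and 2 (MT-ND1 and MT-ATP6/ATP8/CO3) in replicate 1. Thus 4 of 7, 4 of 4 and 4 of 5 mitochondrial clusters recurred in all replicates, where 10.6%, 9.86% and 13.1% of all clusters did. Recurrence rises with the number of edited reads. Of all clusters with at least 200 edited reads, a class of 0.161%, 0.125% and 0.123% of clusters that holds 3 of the 4 recurring mitochondrial loci, 95.7%, 100% and 100% recurred.

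**Figure D1:**
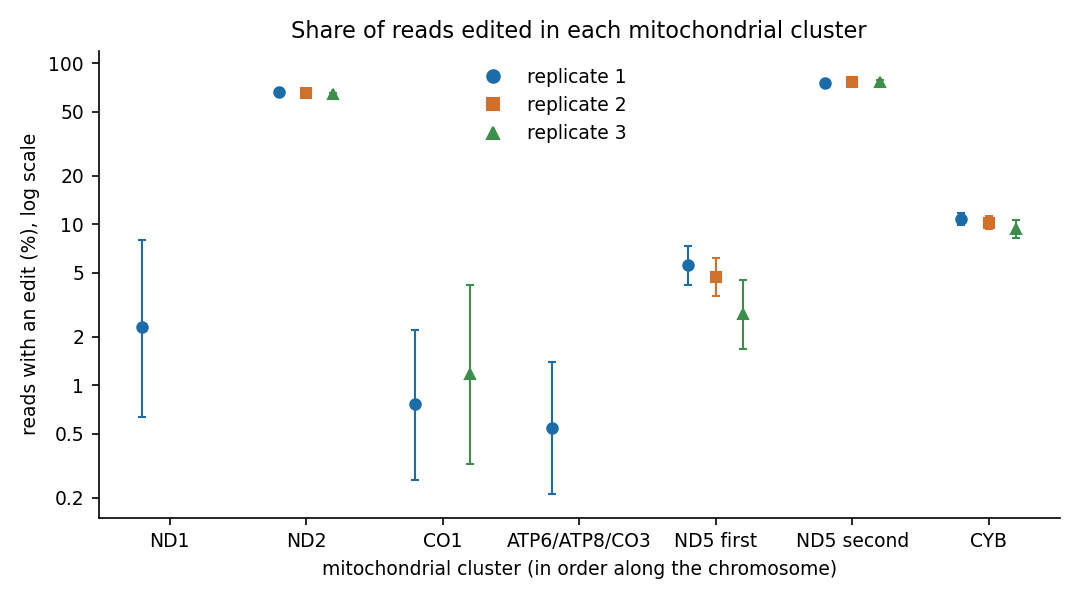
The share of reads that carry an edit (vertical axis, percent, log scale) for each mitochondrial cluster in order along the chromosome, with 1 point per replicate in which the cluster was called and bars for the Wilson 95% interval. MT-ND2 lies at 64.4% to 66.4% and the second MT-ND5 cluster at 76.0% to 76.8%, MT-CYB lies near 10%, and MT-ND1, MT-CO1 and MT-ATP6/ATP8/CO3 lie lowest with the widest intervals.

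MT-ND2, a membrane subunit of complex I, had the cluster with the most edited bases and the most edited reads of the whole series in each replicate. It spans positions 5311 to 5355 and contains 20 C bases. Edited reads numbered 4587 of 6909 in replicate 1, 4197 of 6422 in replicate 2 and 3233 of 5023 in replicate 3. These are 66.4% (Wilson 95% interval 65.3% to 67.5%), 65.4% (64.2% to 66.5%) and 64.4% (63.0% to 65.7%), so the replicates lie within 2.03 percentage points of each other. The intervals here and below cover counting error only, since PCR copies were not collapsed by molecular identifiers. The edit fraction, which divides edited C bases by the C bases counted as covered in the cluster, was 4.69%, 4.68% and 4.69%. At some other loci that count falls well below what the read depth allows, as described below. Multiplied by the 20 C bases this equals 0.938, 0.936 and 0.939 fully converted C bases. The reads counted for the cluster were 1.41, 1.43 and 1.45 times its mean read depth of 4902, 4504 and 3469. Set against that depth, the edited reads came to 93.6%, 93.2% and 93.2%.

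MT-ND5, another membrane subunit of complex I, had a pair of clusters that differed widely although only 45 bases lie between them. The first spans positions 12683 to 12727 with 12 C bases, and the second spans 12773 to 12817 with 10. In the second, 669 of 880, 1045 of 1360 and 623 of 813 reads were edited, or 76.0%, 76.8% and 76.6%. In the first, 45 of 808, 50 of 1061 and 15 of 542 were, or 5.57% (4.19% to 7.37%), 4.71% (3.59% to 6.16%) and 2.77% (1.68% to 4.52%). The second thus had the larger share in each replicate, and the mean share was 17.6 times that of the first. The edit fractions were 9.50%, 9.60% and 9.66% in the second and 1.06%, 0.998% and 0.818% in the first, a ratio of means of 10.0. Against the mean depth of 682, 1056 and 630 at the second cluster, edited reads came to 98.1%, 99.0% and 98.9%.

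MT-CYB, the mitochondrially encoded subunit of complex III, had the third-highest share of edited reads. In its cluster from 15243 to 15287, which has 16 C bases, 470 of 4327, 387 of 3768 and 214 of 2277 reads were edited. These are 10.9% (9.97% to 11.8%), 10.3% (9.34% to 11.3%) and 9.40% (8.27% to 10.7%), with overlapping intervals. The edit fraction was 1.09%, 1.06% and 0.958%, or 0.174, 0.169 and 0.153 converted C bases. The mean depth of 2698, 2304 and 1396 was 0.550, 0.512 and 0.403 times that of MT-ND2, so MT-CYB was the second-deepest mitochondrial locus in each replicate.

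The remaining loci rest on 2 to 4 edited reads each. MT-CO1 encodes the catalytic subunit of complex IV, and its cluster (6790 to 6819, 6 C bases) had 3 edited reads of 394 in replicate 1 and 2 of 169 in replicate 3. MT-ND1 encodes a complex I subunit, and its cluster (4223 to 4252, 13 C bases) had 2 edited reads of 87. The cluster from 8817 to 8846 had 4 edited reads of 735. Its label lists MT-ATP6 and MT-ATP8, the mitochondrial ATP synthase subunits, whose reading frames overlap on 1 transcript, and the adjoining MT-CO3 of complex IV. The label alone does not assign it to 1 of them, and its position was not set against the bounds of these genes. The Wilson intervals of these shares, 0.259% to 2.21% and 0.325% to 4.21% for MT-CO1, 0.633% to 8.0% for MT-ND1 and 0.212% to 1.39% for MT-ATP6/ATP8/CO3, overlap, and their order is not resolved at this depth.

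Replicates were compared in pairs at each locus found in more than 1 of them, by two-sided Fisher's exact tests on edited and unedited reads, with Benjamini-Hochberg adjustment over all 13 pairs. These tests compare libraries, not conditions. None of the 13 pairs passed an adjusted threshold of 0.05, and 2 had an unadjusted p under 0.05. They were replicates 1 and 3 at the first MT-ND5 cluster (2.01-fold, Fisher's exact p = 0.0150, adjusted p = 0.146) and at MT-ND2 (1.03-fold, Fisher's exact p = 0.0225, adjusted p = 0.146). The widest relative gap between replicates among the 4 recurring loci was that of the first MT-ND5 cluster, whose mean share was 4.35% ± 1.44 (SD, n = 3). The mean share was 65.4% ± 1.01 for MT-ND2, 76.5% ± 0.424 for the second MT-ND5 cluster and 10.2% ± 0.736 for MT-CYB. The gaps between neighbours in this order exceed the spread between replicates.

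Together the mitochondrial clusters held 5505, 5256 and 3742 edited bases, of which MT-ND2 supplied 82.3%, 79.2% and 86.2%. The second MT-ND5 cluster supplied 8.14%, 12.5% and 7.62%, MT-CYB 8.54%, 7.38% and 5.72%, and the first MT-ND5 cluster at most 0.951%. Mitochondrial clusters contained 1.39%, 1.15% and 1.24% of the covered C bases of all clusters and 5.44%, 4.71% and 4.85% of the edited bases. In reads, they contained 0.863%, 0.728% and 0.799% of all reads in clusters and 9.09%, 8.47% and 8.81% of the edited reads. The edit fraction pooled over mitochondrial clusters was 3.67%, 3.82% and 3.90%, and that pooled over nuclear clusters was 0.900%, 0.901% and 0.960%. The difference was 2.88 ± 0.0953 percentage points (SD, n = 3) and positive in 3 of 3 replicates. A two-sided exact permutation test that flips the signs of the replicate differences gave p = 0.25, the smallest that 3 replicates allow. Without the MT-ND2 cluster the difference was 1.07 percentage points, and without both it and the second MT-ND5 cluster 0.105 ± 0.102. By the median over clusters, mitochondrial clusters were lower than nuclear ones in replicates 1 and 3 (1.21% against 1.64% and 1.07% against 1.80%) and higher in replicate 2 (2.87% against 1.65%). The pooled difference is therefore carried by a pair of loci.

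Mitochondrial clusters were deep, with mean depths from 63.6 to 4902, where the median nuclear cluster had 25.1, 24.7 and 21.0. Each was therefore set beside the nuclear clusters of its replicate within a factor of 2 of its own depth. For MT-ND2 there were 60, 70 and 55 such clusters, and none had a larger share of edited reads, with a highest value of 9.24%, 11.2% and 9.66%. For MT-CYB, 0 of 81, 0 of 87 and 1 of 87 had a larger share. For the second MT-ND5 cluster 1 of 305, 0 of 156 and 0 of 225 did. The first MT-ND5 cluster was exceeded by 30 of 416, 24 of 283 and 151 of 477. In contrast, MT-CO1 was exceeded by 919 of 997 and 1546 of 1711, MT-ATP6/ATP8/CO3 by 1117 of 1151 and MT-ND1 by 3482 of 4654, so by the share of edited reads these loci lie in the lower part of nuclear clusters of like depth. The edit fraction gave other places. By that measure, 8, 7 and 5 nuclear clusters of like depth were higher than MT-ND2, 29, 25 and 13 were higher than MT-CYB, and 6, 1 and 0 were higher than the second MT-ND5 cluster. The first MT-ND5 cluster was exceeded by 65, 61 and 112. MT-CO1 was exceeded by 42 of 997 and 368 of 1711 and MT-ND1 by 1773 of 4654, in the upper part, and MT-ATP6/ATP8/CO3 by 810 of 1151. The comparison set is itself uneven, since 32 of 60, 30 of 70 and 20 of 55 nuclear clusters of a depth like that of MT-ND2 had a coverage per C base, the covered C bases per C base of the cluster, under 0.5 times their mean depth. Of all clusters, 0.504%, 0.520% and 0.510% had at least 50% of reads edited. MT-ND2 and the second MT-ND5 cluster were among them in each replicate. Among nuclear clusters with at least 200 edited reads, 4 of 20, 2 of 16 and 2 of 11 had over 50% of reads edited. That limit on edited reads was chosen after the values were seen.

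**Figure D2:**
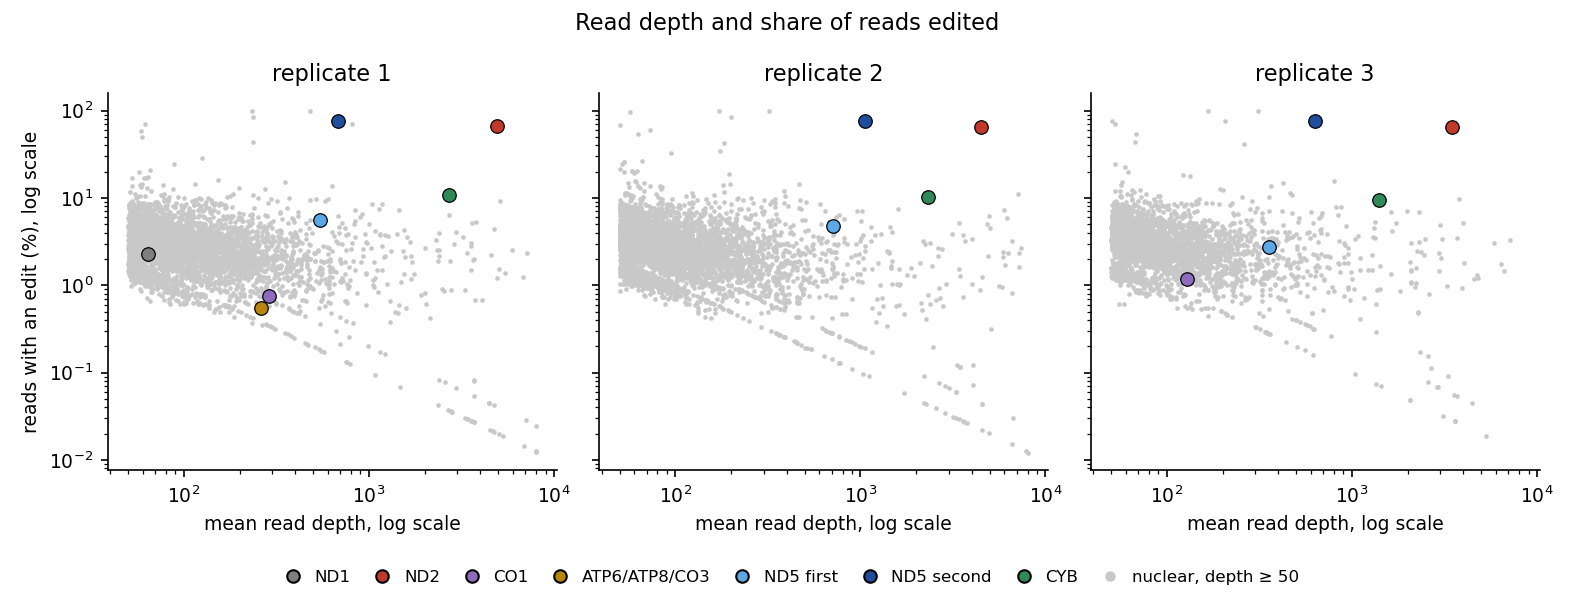
Share of reads with an edit (vertical axis, percent, log scale) against mean read depth (horizontal axis, log scale) in replicates 1, 2 and 3. Grey points are nuclear clusters with a depth of at least 50 and coloured points are mitochondrial clusters, of which MT-ND2 stands above all nuclear clusters of like depth and the second MT-ND5 cluster above all but 1 (in replicate 1), while MT-CO1 and MT-ATP6/ATP8/CO3 lie in the lower part.

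The number of covered C bases per C base of a cluster should lie near its mean depth if reads cover it evenly, but it did so at only some mitochondrial loci. The ratio of both was 0.985, 0.987 and 0.991 at MT-ND2 and 1.00, 0.995 and 0.999 at MT-CYB. It was 0.692, 0.648 and 0.468 at the second MT-ND5 cluster and 0.666, 0.587 and 0.428 at the first. At MT-CO1 it was 0.0843 in replicate 1 and 0.244 in replicate 3, at MT-ND1 0.199 and at MT-ATP6/ATP8/CO3 0.393. The ratio was under 0.5 in 3, 0 and 3 mitochondrial clusters of replicates 1, 2 and 3, against 4.26%, 5.06% and 3.90% of all clusters. Low ratios were more frequent at depth. In the depth range of the mitochondrial clusters, 7.97%, 35.1% and 12.3% of nuclear clusters were under 0.5. That range was 63.6 to 4902, 711 to 4504 and 128 to 3469, with 3174, 148 and 872 nuclear clusters. These shares are therefore not comparable between replicates. Nuclear clusters of like depth with a ratio below that of the mitochondrial cluster made up 6.32% and 4.27% for MT-CO1, 2.92% for MT-ND1 and 7.47% for MT-ATP6/ATP8/CO3. They made up 14.7%, 26.1% and 11.7% for the first MT-ND5 cluster and 16.7%, 30.8% and 17.8% for the second. Why fewer C bases were counted than the depth allows was not tested. The edit fraction of such loci rests on few bases: in MT-CO1 it was 2.76% in replicate 1, from 4 edited of 145 covered C bases, and 1.07% in replicate 3, from 2 of 187, while the share of edited reads was 0.761% and 1.18%. The order of the replicates at MT-CO1 thus turns with the measure.

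**Figure D3:**
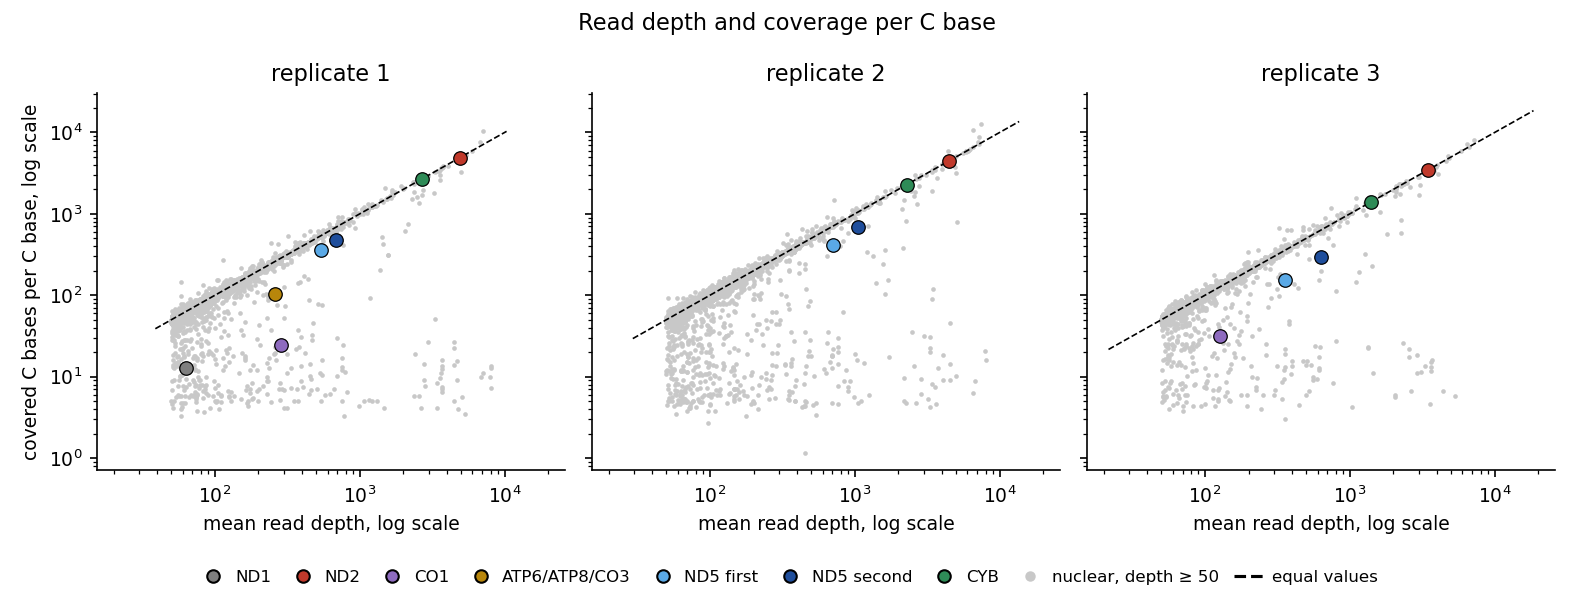
Covered C bases per C base of a cluster (vertical axis, log scale) against mean read depth (horizontal axis, log scale) in replicates 1, 2 and 3, with nuclear clusters of a depth of at least 50 in grey, mitochondrial clusters in colour and a dashed line of equal values. MT-ND2 and MT-CYB lie on the line, both MT-ND5 clusters below it, and MT-CO1, MT-ND1 and MT-ATP6/ATP8/CO3 further below.

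The counts of edited bases and edited reads were close to each other at MT-CYB, MT-ND2 and the first MT-ND5 cluster. Their ratio was 1.00, 1.00 and 1.00 at MT-CYB, with 470 bases in 470 reads, 388 in 387 and 214 in 214. At the first MT-ND5 cluster it was 1.02, 1.00 and 1.00, and at MT-ND2 0.988, 0.991 and 0.998. Among nuclear clusters with at least 200 edited reads, of which there were 20, 16 and 11, the median ratio was 1.40, 1.31 and 1.36, and 2, 2 and 1 of them were at or below the ratio of MT-CYB. Among nuclear clusters with at least 10 edited reads the median was 1.46, 1.52 and 1.44, and 81 of 709, 83 of 717 and 54 of 496 were at or below the ratio of the first MT-ND5 cluster. Both limits on edited reads were chosen after the values were seen. On 2 to 4 edited reads, the ratio was 1.33 and 1.00 at MT-CO1, 1.00 at MT-ND1 and 1.25 at MT-ATP6/ATP8/CO3. At the second MT-ND5 cluster the edited bases (448, 657 and 285) were far fewer than the edited reads, at 0.670, 0.629 and 0.457 per read. Its edited reads were 1.42, 1.53 and 2.11 times its coverage per C base, and since an edited read holds at least 1 edited base, the base and read counts at this locus were made by different rules or on different reads. Fewer edited bases than edited reads occurred in 2 mitochondrial clusters of each replicate, MT-ND2 and the second of MT-ND5, and in 0.196%, 0.079% and 0.0968% of all clusters.

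**Figure D4:**
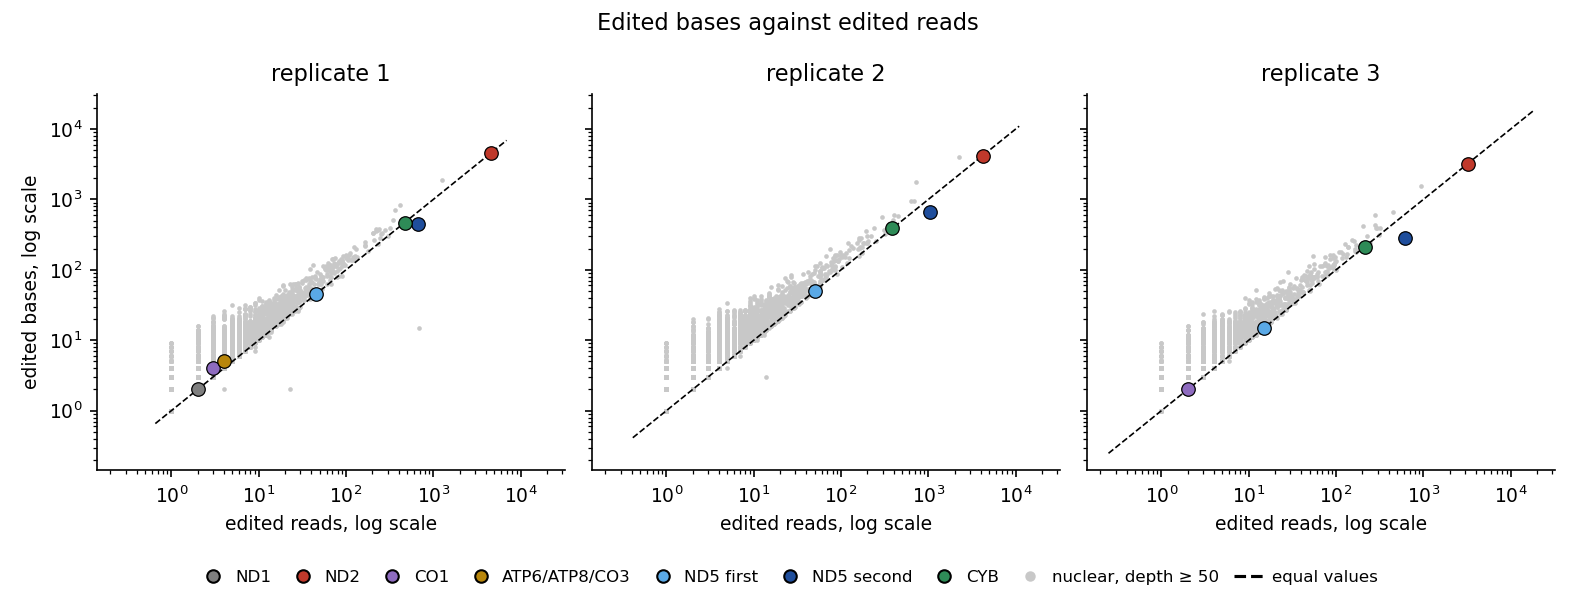
Edited bases (vertical axis, log scale) against edited reads (horizontal axis, log scale) in replicates 1, 2 and 3, with nuclear clusters of a depth of at least 50 in grey, mitochondrial clusters in colour and a dashed line of equal values. MT-CYB, MT-ND2 and the first MT-ND5 cluster lie on or near the line, the second MT-ND5 cluster lies below it, and most nuclear clusters lie above it.

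The mitochondrial clusters also differed from one another in base composition. C bases made up 44.4% of the length at MT-ND2, 43.3% at MT-ND1, 35.6% at MT-CYB and 33.3% at MT-ATP6/ATP8/CO3. They made up 26.7% and 22.2% at the first and second MT-ND5 cluster and 20% at MT-CO1. The median over nuclear clusters was 17.8%, 18.7% and 20% in replicates 1, 2 and 3, so no mitochondrial cluster lay below it. The most edited loci do not share a C content, since MT-ND2 is the richest and the second MT-ND5 cluster among the poorest. Each cluster comes with a score between 0 and 1. The paper derives it from the place of a cluster's edit fraction in a negative binomial distribution. The score does not order these clusters by edit fraction: in replicate 1 MT-ND1 had 1.21% against 1.09% at MT-CYB, but the lower score. The score was at least 0.99 in 5 of 7, 4 of 4 and 4 of 5 mitochondrial clusters, where 60.8%, 60.1% and 61.2% of all clusters reached it. The 3 clusters below it were MT-ND1 (0.964) and MT-ATP6/ATP8/CO3 (0.960) in replicate 1 and MT-CO1 (0.951) in replicate 3, while MT-CO1 in replicate 1, with 4 edited bases, scored 1.00.

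No cluster outside the mitochondrial chromosome carried the name of a nuclear copy of a mitochondrial gene in any replicate. The names searched for start with MTND, MTCO, MTATP, MTCYB or MTRNR. Copies under other labels are missed by such a search, so it cannot tell whether nuclear copies held clusters. The hsa-mir-6723 clusters, described below, lie where such a copy is known and bear another label. Nuclear copies nearly identical to mitochondrial genes exist, and reads could be split between them and the mitochondrial chromosome in alignment, which was not tested. Whether the high shares at MT-ND2 and the second MT-ND5 cluster belong to edited RNA or to a base of the cell line's mitochondrial genome cannot be told apart here, because each sample carries the fusion.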

How the data were processed

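RNA editing was measured by STAMP in 3 replicates of 1 condition. Per the labels, reads were aligned with STAR to hg19 (version not given in the sources used here). The authors called C-to-U positions with SAILOR, common SNPs being dropped, and passed them to FLARE for each replicate on its own. FLARE kept windows of 30 bases at an adjusted p-value under 0.1 and merged those within 15 bases. The deposited counts per cluster are unscaled whole numbers: C bases, C bases counted as covered by reads, edited bases, reads and edited reads. The deposited fractions divide edited by covered C bases and edited by all reads, and equalled those computed here from the counts. The deposited mean depth is a coverage signal that is not scaled to library size, and the deposited score runs from 0 to 1. Reads in clusters numbered 1637592, 1731304 and 1104249, which is not the library depth.

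Clusters on the mitochondrial chromosome were taken with Python 3.11.15, pandas 2.3.3, NumPy 2.4.6 and SciPy 1.17.1 and plotted with matplotlib 3.10.9. A locus was shared when clusters of the same strand had at least 1 base in common. Shares have Wilson 95% intervals. Replicates were compared by Fisher's exact tests and mitochondrial with nuclear clusters by an exact sign-flip permutation test. Overlaps and tests were checked on simulated data. The members and lists were chosen with earlier results of these data known. Named are all mitochondrial clusters, and nuclear clusters named as copies of mitochondrial genes. Alternatives were a minimum score, depth or number of edited reads, other measures and overlaps, leaving out MT-ND2, and leaving out each replicate.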

Additional observations from a re-analysis of the deposited data

How the results depend on the processing

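There were 44 alternative values of 7 results. Only the pooled difference from nuclear clusters could reverse in sign, since the other results are counts, shares or ratios that cannot be negative. Its mean stayed positive, but as a difference of medians it was negative in replicates 1 and 3 (-0.425 and -0.732 percentage points). Of the 44 values, 21 left out 1 replicate. Where the result is a mean over the 3 replicates, this cannot move it by as much as their spread. The number of loci found in all replicates is not a mean, and it went from 4 to 5 without replicate 2. Of the other 23, 15 moved further than replicates differ (1 SD), 5 of them values of the pooled difference from nuclear clusters. The share of edited bases on the mitochondrial chromosome (mean 5.00% ± 0.386) became 5.90% at a minimum score of 0.99, 8.79% when edited reads replaced edited bases, 0.908% without MT-ND2 and 0.424% without MT-ND2 and the second MT-ND5 cluster, the last chosen after the values were seen. The edited fraction became 65.4% for MT-ND2 and 76.5% for the second MT-ND5 cluster as a share of reads, which is another quantity, and 4.72% and 16.9% as edited reads over covered C bases, against 4.69% and 9.59%. The median number of edited bases per edited read over mitochondrial clusters was 0.999, and became 1.00 without MT-ND2 and 0.931 as a ratio of sums. The pooled difference from nuclear clusters was 2.84 to 2.93 percentage points with a replicate left out, 3.24 against nuclear clusters in the depth range, 1.07 without MT-ND2, 0.105 also without the second MT-ND5 cluster, 0.0196 ± 1.05 as a difference of medians and 40.4 as a share of reads, where the spread was 0.0953. The number of loci found in all remaining replicates was 4 to 5, the higher value without replicate 2, when MT-CO1 is added. No paired comparison of conditions was possible because there is only 1 group. The values of MT-ND1, MT-CO1 and MT-ATP6/ATP8/CO3 rest on at most 4 edited reads each, of 87 to 735 reads.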

Other observations

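A label that names no mitochondrial gene, hsa-mir-6723 on chromosome 1, was singled out after its values were seen, because this part of the chromosome is known to hold a nuclear copy of mitochondrial DNA. It had 1 cluster in each replicate. In replicate 1 the cluster from 566665 to 566709 had 3 edited reads of 99 and an edit fraction of 1.49%, and in replicate 2 the same stretch had 1 of 71 and 0.697%. In replicate 3 the neighbouring stretch from 566710 to 566754 had 3 of 50 and 1.07%. The ratio of coverage per C base to mean depth was 0.192, 0.395 and 0.513 in these clusters.

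The depth of the second MT-ND5 cluster relative to MT-ND2 was 0.139, 0.234 and 0.182 in replicates 1, 2 and 3, and that of the first was 0.111, 0.158 and 0.103, so replicate 2 was highest for both. For MT-CYB replicate 1 was highest, at 0.550 against 0.512 and 0.403. Depth relative to MT-ND2 therefore did not move together over these loci.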
